A study of Mus musculus with 3 samples.

Results

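Cdh18, Cdh12, Cdh10, Cdh9 and Cdh6 are type II cadherin genes that lie along 1 gene-poor stretch of mouse chromosome 15. They were taken by name from the RefSeq gene table, with the numbers of nucleosome positions over their spans on the 3 days already known. They are 5 of 774 protein-coding genes of chromosome 15 and of 21523 on the autosomes and chromosome X. Everything below on how their position numbers differ between days or from other DNA is therefore a description, and no test was made. The 3 libraries came from erythroblasts, the nucleated precursors of red cells, obtained from 6 mouse fetuses. The starting cells were negative for Ter119, which marks the surface of more mature erythroid cells. They grew in IMDM with fetal bovine serum, BSA, insulin and erythropoietin, the main hormone of red cell production. Chromatin was taken on culture day 0, day 1 and day 2, with 1 library per day, so no value has a replicate check. The sources used here give no strain, genotype or age of the fetuses, and do not say whether the days share a culture. The lists hold positions and no expression, so erythroid markers could not be checked.

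Cadherins are calcium-dependent adhesion proteins of the cell surface, and the type II members are known best from the nervous system, where cells sort and synapses form. In mice Cdh6 is known from developing kidney epithelium, Cdh9 from synapses of the hippocampus and Cdh10 from brain and its vessels, while Cdh12 and Cdh18 are expressed mainly in brain. Micrococcal nuclease cuts the DNA between nucleosomes, so the sequenced fragments mark where nucleosomes lay. Each listed position is 140 bp wide and carries a summit value, taken here as the coverage at its centre.

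In mm10 coordinates Cdh6 spans chr15:13028699-13176407 on the minus strand, 148 kb. Cdh9 follows at chr15:16728550-16857138, 129 kb, and Cdh10 at chr15:18818869-19016206, 197 kb. Cdh12, at chr15:20448878-21598421, is 1150 kb long, and Cdh18, at chr15:22548898-23477491, is 929 kb long, and all genes but Cdh6 are on the plus strand. Together the spans cover 2.55 Mb, or 19.6% of the 13 Mb window from 12 to 25 Mb in which they lie. The table lists 13 protein-coding genes in the window, with none in the stretches between the spans, beside 16 lncRNAs and 32 pseudogenes. The RefSeq start site used here lies at the 5′ end of Cdh10, Cdh9 and Cdh6. That of Cdh12 lies 663 kb and that of Cdh18 488 kb inside the span.

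The promoters show how the positions changed at the start of a gene, so those under a listed position on some day are printed, from 250 bases before to 50 after the start site (RefSeq, GRCm38.p6, the same coordinates as mm10). All 5 genes matched the promoter table. Capitals mark the bases that lay under a listed position on the day named. Cdh6 is chr15:13173626-13173925 on the minus strand, Cdh12 chr15:21111202-21111501, Cdh9 chr15:16728665-16728964 and Cdh18 chr15:23036213-23036512 on the plus strand.
Cdh6, day 0: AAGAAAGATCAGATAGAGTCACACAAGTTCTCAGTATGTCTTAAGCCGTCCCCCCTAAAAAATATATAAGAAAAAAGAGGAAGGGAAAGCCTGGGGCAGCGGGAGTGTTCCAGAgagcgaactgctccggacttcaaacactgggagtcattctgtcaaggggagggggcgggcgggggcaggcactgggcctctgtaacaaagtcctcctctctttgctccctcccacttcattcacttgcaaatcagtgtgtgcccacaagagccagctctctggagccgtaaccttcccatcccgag
Cdh6, day 2: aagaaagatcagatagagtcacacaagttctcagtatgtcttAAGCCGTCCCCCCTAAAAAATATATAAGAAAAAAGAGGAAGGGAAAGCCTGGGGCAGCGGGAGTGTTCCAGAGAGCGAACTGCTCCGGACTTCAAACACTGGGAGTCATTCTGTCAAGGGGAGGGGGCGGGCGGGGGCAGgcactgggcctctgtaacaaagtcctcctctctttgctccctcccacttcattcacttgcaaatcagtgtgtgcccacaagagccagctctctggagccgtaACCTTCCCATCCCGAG
Cdh12, day 1: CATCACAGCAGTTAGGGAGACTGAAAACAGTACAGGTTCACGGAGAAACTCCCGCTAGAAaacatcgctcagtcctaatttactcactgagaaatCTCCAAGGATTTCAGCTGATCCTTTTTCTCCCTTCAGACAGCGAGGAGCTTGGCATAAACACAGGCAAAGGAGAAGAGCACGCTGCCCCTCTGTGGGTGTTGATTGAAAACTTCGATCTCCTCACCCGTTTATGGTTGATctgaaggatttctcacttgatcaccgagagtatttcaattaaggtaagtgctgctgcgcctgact
Cdh12, day 2: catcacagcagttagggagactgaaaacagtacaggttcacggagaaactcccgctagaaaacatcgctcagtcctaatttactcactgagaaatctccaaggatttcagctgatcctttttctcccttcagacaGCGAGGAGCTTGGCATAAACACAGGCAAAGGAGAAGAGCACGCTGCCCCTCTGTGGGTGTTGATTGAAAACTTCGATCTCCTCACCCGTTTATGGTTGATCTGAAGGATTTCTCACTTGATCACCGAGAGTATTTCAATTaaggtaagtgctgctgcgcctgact
Cdh9, day 2: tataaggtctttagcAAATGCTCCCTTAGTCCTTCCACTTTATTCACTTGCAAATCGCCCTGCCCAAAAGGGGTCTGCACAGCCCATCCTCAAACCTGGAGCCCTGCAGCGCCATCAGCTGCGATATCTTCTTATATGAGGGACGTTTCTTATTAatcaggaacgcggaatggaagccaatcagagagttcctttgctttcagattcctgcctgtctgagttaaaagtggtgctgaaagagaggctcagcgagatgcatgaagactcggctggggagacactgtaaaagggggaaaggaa
Cdh18, day 2: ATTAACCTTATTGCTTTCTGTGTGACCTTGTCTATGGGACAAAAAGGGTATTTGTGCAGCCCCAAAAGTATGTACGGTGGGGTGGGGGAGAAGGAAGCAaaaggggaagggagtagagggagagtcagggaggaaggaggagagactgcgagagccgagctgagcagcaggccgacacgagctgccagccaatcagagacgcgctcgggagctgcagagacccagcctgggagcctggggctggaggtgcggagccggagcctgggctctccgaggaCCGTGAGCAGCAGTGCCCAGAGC
On day 0 a position covered 114 of the 300 bases of Cdh6, and no position touched the other 4 promoters. On day 1 the covered bases were 200 in Cdh12 and 0 in the rest, and on day 2 they were 156 in Cdh6, 140 in Cdh12, 140 in Cdh9, 122 in Cdh18 and 0 in Cdh10.

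The promoters share few letters. The longest run of bases common to any of the 10 pairs, read on both strands, was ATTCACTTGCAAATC in Cdh9 and Cdh6, with its first base 209 bp before the start site of Cdh9 and 18 bp before that of Cdh6. It occurs on either strand in 2 of 20085 promoters of this length, 0.00996%, and these 2 genes are the ones that hold it. On day 2 it lay under the position of Cdh9, and in Cdh6 it lay between the covered parts. The second longest, AGCCAATCAGAGA in Cdh18 and Cdh9, is in 19 promoters or 0.0946%. A shared run is a description of letters, and whether a factor binds there was not tested. The share of G and C was 60.3% in Cdh18, 53% in Cdh6, 48.7% in Cdh9, 46.7% in Cdh12 and 37.7% in Cdh10, against a median of 57% over all promoters. The dinucleotide CG occurred 12, 8, 8, 9 and 2 times in these genes, in the same order, against a median of 14, so all 5 promoters lay below it.

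Within 1000 bp of the start site, Cdh6 alone had positions on day 0, namely 2. On day 1 Cdh12 had 2 positions, Cdh18 had 1 and Cdh6 had 1, and on day 2 all 5 genes had them, with 6 in Cdh6, 4 in Cdh18, 3 in Cdh10, 2 in Cdh9 and 1 in Cdh12. The counts of genes with a position were thus 1, 3 and 5 of 5 on days 0, 1 and 2. Over all 20085 start sites a position was present at 91.8%, 90.3% and 96.8% on the 3 days, with medians of 6, 7 and 7 positions. The spans were chosen on their position numbers, so nothing is read from this difference. At Cdh12 the centres lay 261 and 86 bp before the start site on day 1 and 46 bp before it on day 2. At Cdh6 the 2 centres of day 0 lay 206 bp before and 166 bp after the start site, and the 2 nearest on day 2 lay 138 bp before and 104 bp after it. In neither gene did a centre near the start site stay within 20 bp between days.

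**Figure D1:**
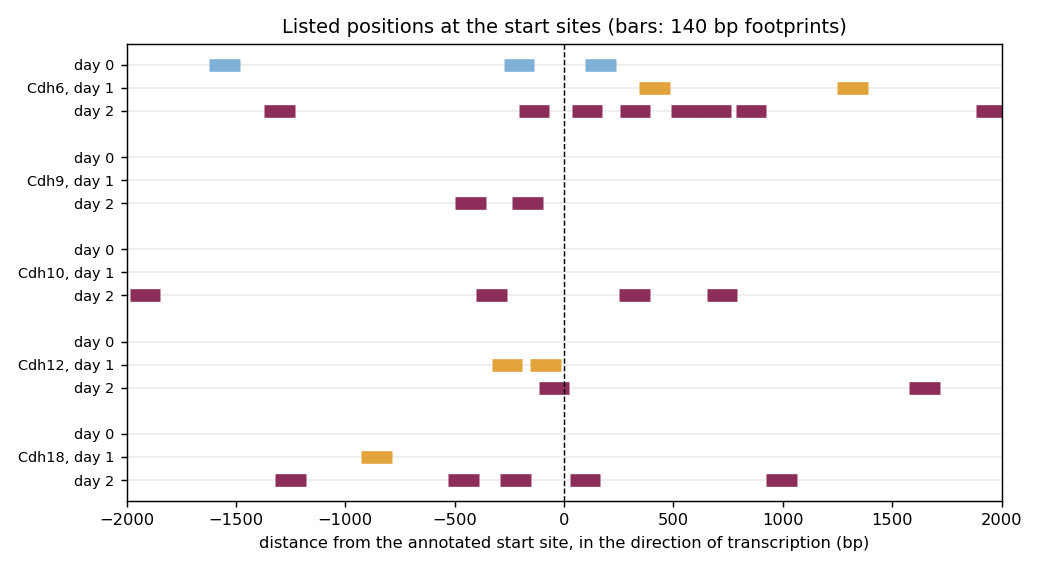
Listed positions within 2000 bp of the start sites of the 5 genes on days 0, 1 and 2. The x axis is the distance from the start site in bp in the direction of transcription, and each bar is the 140 bp of 1 position. Cdh6 alone has positions on day 0, and all 5 genes have at least 2 within the plotted range on day 2.

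Over whole spans the number of listed positions was low on day 0 and highest on day 2 in all 5 genes. On days 0, 1 and 2 Cdh18 held 79, 173 and 652 positions. Cdh12 held 137, 222 and 851, and Cdh10 held 22, 24 and 132. The sequence was 10, 22 and 85 in Cdh9 and 74, 71 and 182 in Cdh6. All genes but Cdh6 therefore had more positions on each later day, while Cdh6 had about as many on day 1 as on day 0. In all, the spans held 322, 512 and 1902 positions, or 126, 201 and 745 per Mb. The rest of chromosome 15, 87.9 Mb outside the window, held 1590, 1432 and 1989 per Mb. It had its lowest number on day 1, where the spans lay between their other 2 days.

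Divided by the rest of chromosome 15 in the same library, which cancels list size, the spans had a relative position density of 0.0794 on day 0 (95% exact counting interval 0.0709 to 0.0885). It was 0.140 on day 1 (0.128 to 0.153) and 0.375 on day 2 (0.358 to 0.392). The spans were thus still far below the chromosome's mean on day 2. The ratio of these values was 1.77 for day 1 over day 0 (1.53 to 2.04), 2.67 for day 2 over day 1 (2.42 to 2.95) and 4.72 for day 2 over day 0 (4.19 to 5.33). In the stretches between and after the spans the same 3 ratios were 1.985, 2.67 and 5.30. Their intervals were 1.84 to 2.14, 2.54 to 2.81 and 4.98 to 5.65. Pooled, the 5 genes thus had ratios no higher than those of the DNA around them. This pool includes Cdh6, which had the lowest ratios. Without Cdh6 the other 4 spans had 1.97 (1.69 to 2.32), 2.81 (2.53 to 3.12) and 5.54 (4.85 to 6.36). These intervals overlap those of the stretches. In both ratios to day 0, given by gene below, Cdh9 and Cdh18 lay above the stretches, and Cdh12, Cdh10 and Cdh6 lay below them. All these intervals cover counting error only. In a bulk library a change in every cell and a change in the share of cells cannot be told apart.

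The 5 genes did not share 1 course. The relative density of Cdh6, the gene nearest the gene-dense end of the window, was 0.315, 0.336 and 0.619 on days 0, 1 and 2. In the other 4 genes it lay between 0.0489 and 0.0750 on day 0, between 0.0849 and 0.135 on day 1 and between 0.332 and 0.372 on day 2. Per Mb, Cdh6 exceeded these 4 spans 4.86 times on day 0 (3.69 to 6.32), 2.62 times on day 1 (2.01 to 3.37) and 1.72 times on day 2 (1.47 to 2.01). On day 0 the order from the lowest was Cdh9, Cdh18, Cdh10, Cdh12 and Cdh6. Among the 4 genes other than Cdh6, 2 of 18 density ratios between 2 genes on the same day had an interval without 1. These were Cdh12 over Cdh18 on day 0, 1.40 (1.05 to 1.87), and Cdh12 over Cdh10 on day 1, 1.59 (1.04 to 2.53).

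Cdh6 also had the lowest ratios between days, while the intervals of the other 4 genes overlapped in each ratio. For day 1 over day 0 the ratio was 2.44 in Cdh9 (1.11 to 5.78), 2.43 in Cdh18 (1.85 to 3.21) and 1.80 in Cdh12 (1.45 to 2.24). It was 1.21 in Cdh10 (0.651 to 2.27) and 1.07 in Cdh6 (0.758 to 1.50), whose intervals include 1. For day 2 over day 1 Cdh10 had the highest ratio, 3.96 (2.55 to 6.40). It was 2.78 in Cdh9 (1.72 to 4.67), 2.76 in Cdh12 (2.38 to 3.21), 2.71 in Cdh18 (2.29 to 3.23) and 1.85 in Cdh6 (1.40 to 2.46). For day 2 over day 0 the ratio was 6.79 in Cdh9 (3.52 to 14.7), 6.60 in Cdh18 (5.22 to 8.44), 4.97 in Cdh12 (4.14 to 5.99), 4.80 in Cdh10 (3.04 to 7.91) and 1.97 in Cdh6 (1.49 to 2.61). The interval of Cdh6 lay below those of the others for day 2 over day 0. The numbers behind Cdh9 and Cdh10 are small, and the intervals of these 2 genes are the widest.

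**Figure D2:**
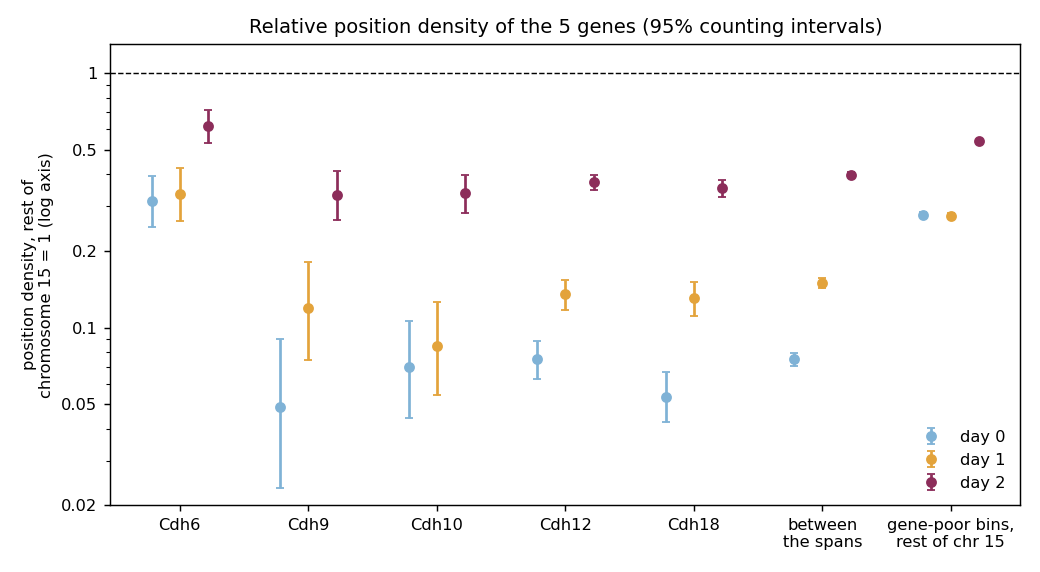
Relative position density of each gene, of the stretches between and after the spans, and of the gene-poor bins of chromosome 15 outside the window, on days 0, 1 and 2. The y axis is positions per Mb divided by those of the rest of chromosome 15 (log axis, dashed line at 1), and bars are 95% exact counting intervals. Cdh6 stands above the other 4 genes on each day, and these lie between 0.332 and 0.372 on day 2.

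The summit value held by the most positions differed between the lists, and this touches every count above. On days 0, 1 and 2 the most frequent summit value was 6.1, 5.18 and 5.0, and positions at that value, after rounding, made up 55.3%, 31.6% and 46.2% of those in the spans. In the rest of chromosome 15 they made up 26.9%, 12.9% and 28.5%. At or below it lay 74.8%, 34.4% and 51.5% of the positions in the spans, against 39.0%, 14.9% and 32.7% in the rest. Low summit values were thus more common in the spans. With a limit of 5 on the summit value, the 3 ratios between days over the spans were 1.75, 2.66 and 4.67, close to the values above. A limit at the lowest summit value that all 3 lists reach, 1.62, gave 1.77, 2.67 and 4.72. It removes almost no position, so these values could hardly differ. Neither limit lies above the most frequent summit value of any list. Neither can therefore even out the difference between the lists. Higher limits moved the ratios of single steps more, and that of 7 was set after the data were seen. At a summit value of at least 7, the spans held 69, 79 and 261 positions, and the 3 ratios were 1.43 (1.02 to 2.00), 3.30 (2.56 to 4.30) and 4.72 (3.61 to 6.25). At this limit Cdh12 held 34, 27 and 120 positions, and its ratio of day 1 over day 0 was 0.991 (0.575 to 1.69), so no difference in that step could be seen there. Cdh18 held 16, 34 and 84, with a ratio of 2.65 (1.42 to 5.15). At a summit value of at least 10, the spans had 4, 15 and 25 positions left.

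Positions in the spans had lower summits and lower fuzziness scores than those in the rest of chromosome 15. Their median summit value was 6.1, 5.5 and 5.0 on days 0, 1 and 2, against 7.62, 6.80 and 6.26 in the rest of chromosome 15. The share with a summit value of 7 or more was 21.4%, 15.4% and 13.7%, against 53.4%, 47.5% and 34.2%. The median fuzziness score, which grows as the reads of a position spread out, was 44.4, 50.4 and 47.6 in the spans, against 51.3, 54.7 and 51.2 in the rest. The difference, spans minus rest, was -6.87, -4.23 and -3.65, largest on day 0. Among positions with summit values of at least 10 it was -9.33, -1.03 and -3.94, from 4, 15 and 25 positions of the spans. Summit value and fuzziness score come from the same reads, and the part of low coverage in the lower scores was not tested.

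**Figure D3:**
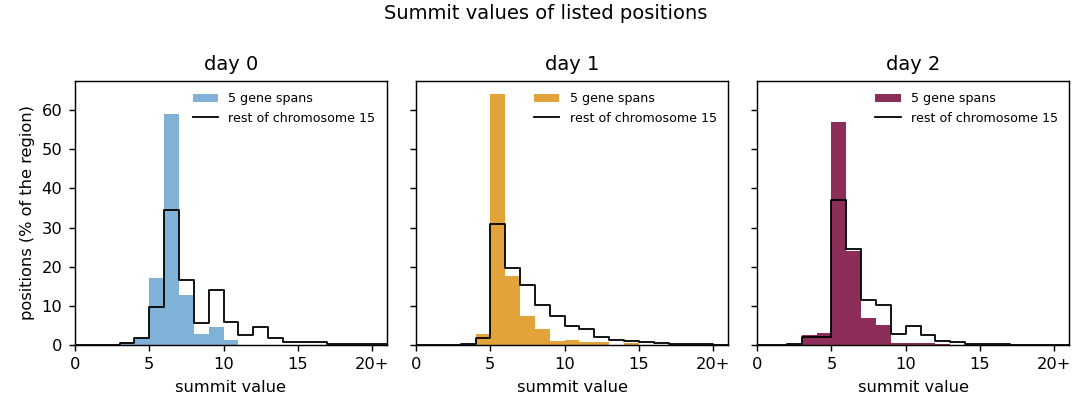
Summit values of the positions in the 5 spans (bars) and in the rest of chromosome 15 (line) on days 0, 1 and 2. The x axis is the summit value in steps of 1, with values of 20 and more in the last step, and the y axis the percent of the region's positions. On all 3 days a single step near the lower end holds most positions of the spans, while the rest of the chromosome reaches further to the right.

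Few positions of the spans stood high, and those of day 1 had day 2 positions close by. All 15 positions of day 1 that reached a summit value of 10 lay in Cdh18, which had 9, and Cdh12, which had 6. A day 2 centre lay within 50 bp of 9 of these 15, and within 100 bp of all 15. Among the 497 other day 1 positions of the spans it lay within 50 bp of 98 and within 100 bp of 161. Several of the 15 are neighbours, so they are not independent places. The highest was in Cdh18 at 23070351, with a summit value of 18.9. Its day 2 partner lay 30 bp away at 23070321 with 13, the highest of Cdh18 on that day, and on day 0 the nearest centre was 9245 bp away. In Cdh12, 3 centres of day 1 between 20645201 and 20645431 reached up to 14.6, and a day 2 centre at 20645396 had 10.0. Positions of day 0 this high numbered 4, 1 in each gene other than Cdh10, and 0 of them had a day 1 centre within 100 bp. Of the 25 positions of day 2 this high, 11 had a day 1 centre within 100 bp. Among the 1877 other day 2 positions 165 did. Whether these places hold repeated sequence, where reads can pile up, was not tested.

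Few positions in the spans had a partner at the same site on another day. Of the 1902 day 2 positions in the spans, 58 had a day 1 centre within 20 bp, or 3.05% (2.32 to 3.92), against 0.894% when the day 1 list was shifted by 1000 bp. For day 0 centres the share was 1.26% (0.810 to 1.87), against 0.683% after the shift. From the earlier side, 11.3% of day 1 positions had a day 2 centre that near (8.72 to 14.4), against 3.32% after the shift. In the rest of chromosome 15 this last share was 18.6%, against 14% after the shift, so the share there was larger and its excess over the shift smaller. With centres within 50 bp the share in the spans was 20.9%, against 6.93% after the shift. Positions present on all 3 days numbered 3, of which 2 lay in Cdh6 and 1 in Cdh12, and 1823 of the day 2 positions, 95.8%, had neither a day 0 nor a day 1 partner. The share without a partner ran from 91.8% in Cdh6 to 99.2% in Cdh10. With 322 and 512 positions on the earlier days, most of the 1902 could not have had a partner.

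Empty stretches within the spans were shorter on each later day. On day 0, 102 of 251 windows of 10 kb that fit in the spans held no position, against 47 on day 1 and 0 on day 2. The longest stretch without one was 83.2 kb on day 0, in Cdh18. By day 1 it was 35.1 kb, also in Cdh18, and by day 2 it was 9.28 kb, in Cdh12. In Cdh6 no 10 kb window was without a position on any day. The median distance between neighbouring centres was 3150, 2860 and 758 bp in the spans, against 245, 225 and 255 bp in the rest of the chromosome. Neighbouring centres within 250 bp were 13.6%, 19.9% and 22.1% of pairs in the spans, against 52.2%, 56.2% and 49.3%. On day 2 every 10 kb window of the spans held a position. Distances, close neighbours and empty windows all depend on the number of positions, so they are not separate from the density above. Whether neighbours lay closer than that density gives was not tested.

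Along the window, density changed sharply near 13 Mb. From 12 to 13 Mb, where Zfr, Mtmr12, Golph3, Pdzd2 and Drosha lie, the lists held 1974, 2213 and 2823 positions on days 0, 1 and 2. From 13 to 14 Mb, with Cdh6, they held 237, 250 and 856, and from 14 to 25 Mb 111, 208 and 777 per Mb. These 5 genes are of 20 kb or more, and among them Drosha acts in microRNA processing, Golph3 at the Golgi and Zfr as an RNA-binding protein. With the autosome mean of each library set to 1, they had 1.14 to 2.04 on day 0 and 1.29 to 2.05 on day 2, with Mtmr12 the highest on both days. In steps of 25 kb the day 0 number was 60 in the first of the 8 steps before 13 Mb and 14 in the last. It was 8 to 16 in the 5 steps that lie wholly inside Cdh6, and 9 and 4 in the next 2 beyond its 5′ end. In number the fall thus came mostly before Cdh6, but it went on beyond the gene. On day 0 Cdh6 held 501 positions per Mb, against 111 from 14 to 25 Mb. On day 0, 5 equal parts of Cdh6 held 12, 12, 21, 17 and 12 positions, counted from its 5′ end.

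Within the low part the bins differed less than elsewhere on the chromosome. The 110 bins of 100 kb from 14 Mb on held 2 to 28 positions (median 10), 8 to 47 (median 19) and 51 to 131 (median 75) on days 0, 1 and 2. As counted, the lowest bin of day 2 lay above the highest of day 1. The rest of the chromosome held 1.39 times as many positions on day 2 as on day 1, and these numbers are not scaled for that. A single stretch stood higher, that between Cdh10 and Cdh12. Its relative density was 0.0860, 0.210 and 0.483 on the 3 days, against 0.0638 to 0.0896, 0.133 to 0.156 and 0.378 to 0.389 in the other 4 stretches between and after the spans, so it exceeded them on days 1 and 2. The variance of the 110 bins was 2.75, 2.87 and 2.76 times their mean, against 130, 143 and 68.1 times in the 879 bins of the rest of the chromosome. This measure depends on the mean, which is much lower in the low part. The standard deviation divided by the mean was 0.498, 0.372 and 0.189, against 0.903, 0.998 and 0.585 in the rest. The rest holds gene-dense and gene-poor DNA alike. As counted, all 130 bins of the window had more positions on day 2 than on day 1 and than on day 0, and 110 had more on day 1 than on day 0. The lists differ in size, and after scaling for this the numbers were 124, 128 and 118 of 130, against 68.5%, 64.3% and 46.9% of the bins in the rest of the chromosome. Set against the DNA around them, the spans had a density 1.06 times that of the stretches between and after them on day 0 (0.930 to 1.20), 0.939 times on day 1 (0.850 to 1.04) and 0.94 times on day 2 (0.894 to 0.989). Without Cdh6 the other 4 spans lay below these stretches on each day, at 0.863 times (0.749 to 0.991), 0.858 times (0.773 to 0.952) and 0.903 times (0.856 to 0.951).

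**Figure D4:**
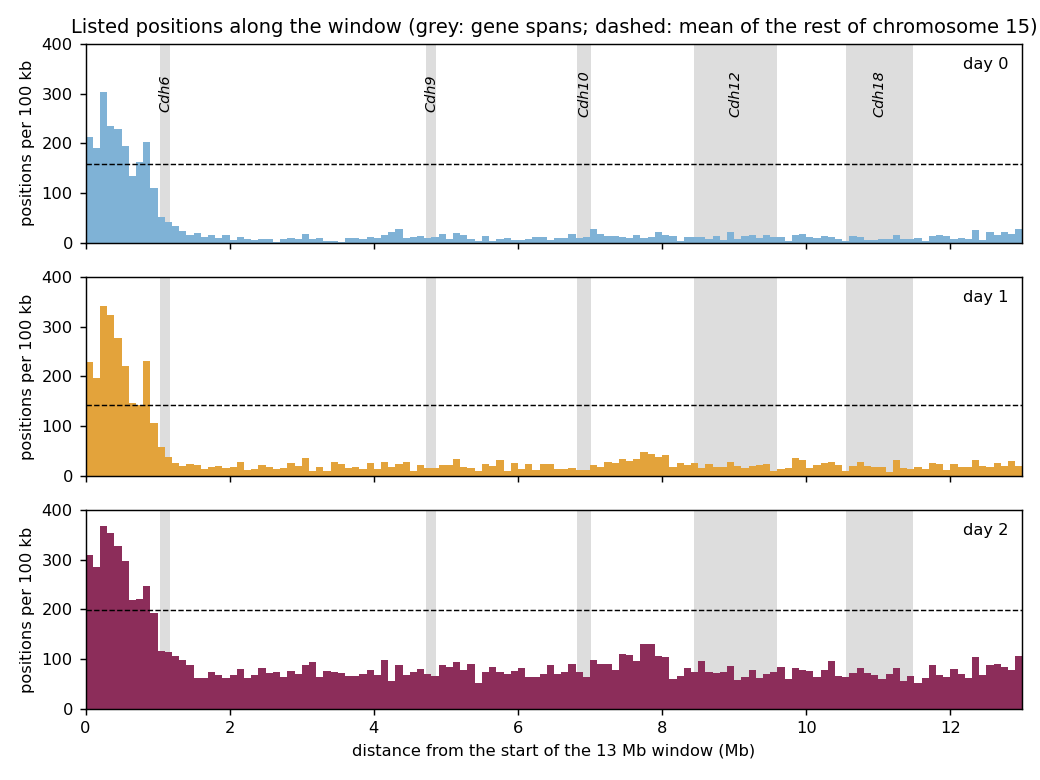
Listed positions per 100 kb along the 13 Mb window on days 0, 1 and 2, with the 5 gene spans in grey and the mean of the rest of chromosome 15 as a dashed line. The x axis is the distance from the start of the window in Mb. The number falls near 1 Mb, and beyond 2 Mb the bins hold 2 to 28, 8 to 47 and 51 to 131 positions on the 3 days.

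The spans also differed from gene-poor DNA outside the window. Gene-poor bins, those of 100 kb whose surrounding 1 Mb holds no more than 1 protein-coding gene, numbered 165 on chromosome 15 outside the window. They held 442, 394 and 1071 positions per Mb on days 0, 1 and 2. The density of the spans was 0.286 times theirs on day 0 (0.255 to 0.319), 0.509 times on day 1 (0.464 to 0.557) and 0.696 times on day 2 (0.663 to 0.730). Relative to these bins the ratio of day 2 over day 0 was 2.44 and that of day 2 over day 1 was 1.37, below the 4.72 and 2.67 obtained against the whole rest of the chromosome. With the autosome mean set to 1, the spans were at 0.0822, 0.163 and 0.409. The gene-poor bins, pooled within each autosome, ranged from 0.180 to 0.353, from 0.141 to 0.349 and from 0.411 to 0.613 over the 19 autosomes. The spans lay below all 19 on days 0 and 2, on day 2 by little, and above 7 of them on day 1. For day 1 over day 0 they had a ratio of 1.98, above the range of 0.535 to 1.39, and for day 2 over day 1 one of 2.52, inside the range of 1.76 to 3.07. For day 2 over day 0 the ratio was 4.97, above the range of 1.34 to 2.76. The spans thus exceeded the pooled bins of every autosome in the ratio of day 1 over day 0. In that of day 2 over day 1 the spans did not. Single bins were not compared. The bins of chromosome 15 leave out the window. Inside it, the stretches between and after the spans had 2.22, 2.51 and 5.58 for the same 3 ratios on this scale. The pool of 5 spans therefore did not exceed the gene-poor DNA around it in either ratio to day 0. Without Cdh6 the other 4 spans had 2.21 for day 1 over day 0 and 5.84 for day 2 over day 0. The value of 5.84 lay above that of the stretches, and no interval is given on this scale. Cdh9 (2.74 and 7.16) and Cdh18 (2.72 and 6.95) exceeded the stretches in both ratios. Cdh12 (2.01 and 5.23), Cdh10 (1.36 and 5.05) and Cdh6 (1.19 and 2.07) did not.

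Among all 2312 autosomal protein-coding genes of 100 kb or more with at least 10 positions on 1 of the days compared, 4 of the 5 genes were near the bottom on day 0. With the autosome mean set to 1, only 2 genes had a lower density than Cdh9 on day 0, 4 than Cdh18, 6 than Cdh10 and 7 than Cdh12, but 308 than Cdh6. For day 2 over day 0 no gene exceeded the ratio of 7.16 in Cdh9, and 1, 6, 7 and 203 genes exceeded Cdh18, Cdh12, Cdh10 and Cdh6. On this scale a ratio of 2 or more for day 1 over day 0 was found in 0.476% of genes and in 3 of the 5, Cdh9 (2.74), Cdh18 (2.72) and Cdh12 (2.01), the last just past the limit. For day 2 over day 1 it was found in 21.3% and in 4 of the 5, all but Cdh6 (1.74). For day 2 over day 0 it was found in 9.86% and in all 5, with Cdh6 (2.07) just past the limit. A change of 2 times or more in the other direction was found in 11.2%, 0% and 0.562% of genes for the same 3 comparisons and in 0 of the 5. The genes were chosen on these numbers, so nothing is read from their counts. The 3 comparisons share libraries.

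The 5 genes with the course most like the mean of the 5 cadherins, by the distance of log2 relative densities over the 3 libraries, were Neto1 on chromosome 18 (distance 0.258), Plcxd3 on chromosome 15 (0.293), Sema3e on chromosome 5 (0.453), Olfm3 on chromosome 3 (0.478) and Lrfn5 on chromosome 12 (0.489). Neto1 encodes a partner of glutamate receptors and Lrfn5 an adhesion protein of synapses, and Sema3e is a secreted guidance cue. Neto1 had relative densities of 0.0990, 0.188 and 0.412. Of the cadherins, Cdh12 lay nearest to their mean at 0.206 and Cdh6 farthest at 2.36, and 361 of the other genes lay nearer than Cdh6 did. Cdh18, Cdh10 and Cdh9 lay at 0.690, 0.828 and 0.864, and 37 of the other genes lay nearer than Cdh9. The mean of the 5 thus describes Cdh6 poorly. Of the cadherins, Cdh12 alone lay nearer to it than the 5 genes named as most like it.

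Cadherin genes elsewhere did not follow as a family. Of 8 other type II genes, Cdh7 on chromosome 1 came closest, with 12, 18 and 97 positions and ratios of 1.86 for day 1 over day 0 and 6.81 for day 2 over day 0. Cdh8 (3.24), Cdh19 (3.19), Cdh20 (2.23) and Cdh11 (1.99) had day 2 over day 0 ratios of about 2 or more, but their day 1 over day 0 ratios were 0.555 to 0.977, all below 1. Cdh5, the cadherin of vessel walls, Cdh22 and Cdh24 had 0.785, 0.564 and 0.911 for day 2 over day 0. Their day 0 densities were 1.81, 2.42 and 2.95 times the autosome mean, where Cdh7, Cdh8, Cdh11, Cdh19 and Cdh20 had 0.0480 to 0.20. Of the 5 type I genes, Cdh2, the N-cadherin of neurons and muscle, had 1.69. Cdh1, the E-cadherin of epithelia, had 0.860, and Cdh3, Cdh4 and Cdh15 had 0.778, 0.600 and 0.798. In both types the genes of low day 0 density were those with ratios above 1, and since day 0 enters both values this is not independent.

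**Figure D5:**
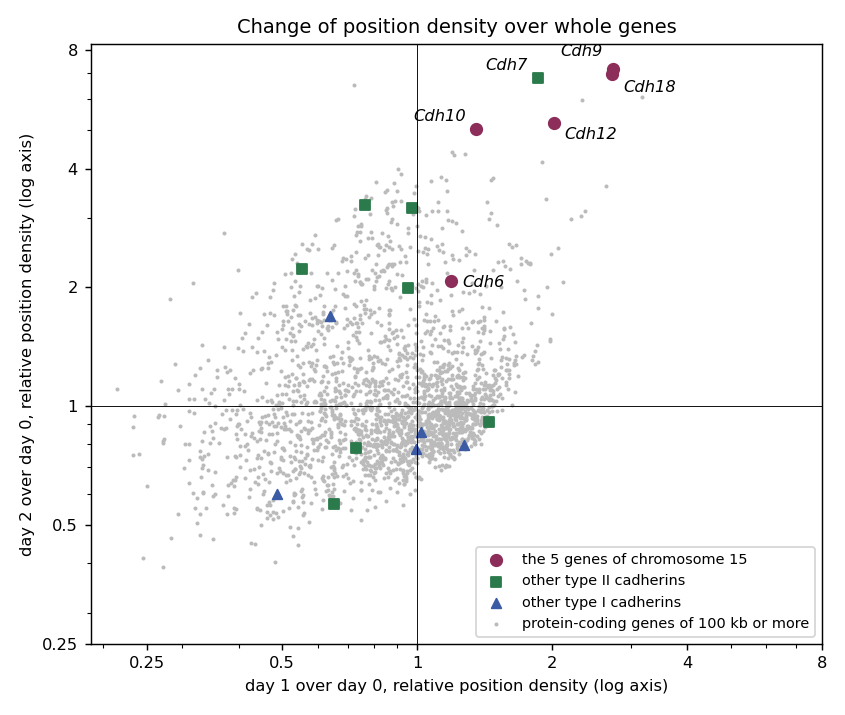
Ratio of relative position density over whole genes, day 1 over day 0 on the x axis and day 2 over day 0 on the y axis (both log axes, autosome mean of each library set to 1). Grey points are protein-coding genes of 100 kb or more, squares and triangles the other type II and type I cadherins. Cdh9, Cdh18 and Cdh12 lie at the upper right, Cdh10 to their left with 1.36 and 5.05, and Cdh6 lower with 1.19 and 2.07.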

How the data were processed

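Chromatin of cultured mouse fetal liver erythroblasts was digested with micrococcal nuclease and sequenced, with 1 library on each of 3 days, per the labels. For each library the authors deposited a list of nucleosome positions. Per the file headers, its summit value is a smoothed signal (coverage) that the authors had scaled. The fuzziness score and the p-values of each position are named per the file headers. The p-values were not used. Bowtie2, bedtools and the build mm10 are named in the submitters' processing notes; versions, the position caller with its settings, and read totals are not given in the sources used.

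The lists held 3735952, 2999502 and 4474045 positions on days 0, 1 and 2. A position was counted in a span by its centre. Gene spans, start sites and promoters came from RefSeq tables of GRCm38.p6. The members and lists were chosen with earlier results of these data known. Named are the 5 cadherins, 13 other cadherins, window genes of 20 kb or more, the 5 most alike genes and the 2 highest and 2 lowest of the other chromosome 15 genes of 150 kb or more. Single positions are named for their summit values, which were seen first. Relative density is positions per Mb divided by chromosome 15 from 3 Mb on outside the window, or by all autosomes where stated. Intervals are 95% exact Poisson, conditional binomial or Clopper-Pearson and cover counting error only. No test between days was possible. The counting steps were tested on simulated data. Python 3.11.15, numpy 2.4.6, pandas 2.3.3, scipy 1.17.1 and matplotlib 3.10.9 were used.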

Additional observations from a re-analysis of the deposited data

How the results depend on the processing

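Of 159 recomputed values, 78 moved by less than their counting error and 81 by more, and no day ratio over the spans fell below 1. The 78 include values with empty bins left out, which could not move, and values at the limit of 1.62, which hardly could. The following values are in the order of days 0, 1 and 2. With summed summit values the relative density of the spans was 0.0639, 0.113 and 0.322, and that of the 13 Mb window 0.142, 0.221 and 0.422. At summit values of at least 10 the spans had 0.00574, 0.0281 and 0.0509, and the window 0.0372, 0.0774 and 0.155. With 7 or more, a limit chosen after seeing the data, the spans had 0.0319, 0.0455 and 0.150, and the window 0.0987, 0.147 and 0.259. Divided by gene-poor bins of chromosome 15 the spans had 0.286, 0.509 and 0.696, and the window 0.598, 0.927 and 0.878, so that the window then stood no higher on day 2 than on day 1. Divided by all autosomes the spans had 0.163 on day 1 and 0.409 on day 2, and the window 0.172, 0.296 and 0.516.

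The ratio over the spans for day 1 over day 0 was 4.90 for summit values of at least 10 and 1.43 for at least 7. That for day 2 over day 1 was 1.81, 3.30 and, divided by gene-poor bins, 1.37. That for day 2 over day 0 was 8.87 at 10 or more and 2.44 divided by gene-poor bins. With each gene left out in turn the span density was 0.0649 to 0.0942 on day 0 and 0.128 to 0.146 on day 1, and the day 2 over day 0 ratio was 4.11 to 5.54, with Cdh18 and Cdh6 at the ends. No bin of chromosome 15 was empty in all libraries, so leaving out such bins gave the same values. No paired analysis was possible because each day has 1 library. Read totals are not given, so the part of depth in these values was not tested.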

Other observations

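Outside the window, 62 other protein-coding genes of chromosome 15 are 150 kb or longer. With the autosome mean of each library set to 1, their day 2 over day 0 ratio ran from 0.531 to 5.96 with a median of 1.34, and their day 1 over day 0 ratio had a median of 1.08. Plcxd3, a phospholipase-like gene, had the highest day 2 over day 0 ratio at 5.96, with 25, 47 and 177 positions on days 0, 1 and 2. Csmd3, a long gene of the nervous system, followed at 4.35 with 164, 169 and 848 positions, and its day 1 over day 0 ratio was 1.28. At the other end were Efcab6 with 0.531 and Rbfox2, a splicing regulator, with 0.609.

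Inside Cdh18 and Cdh12 positions were spread along the whole gene. In 5 equal parts of Cdh18 counted from the 5′ end the day 2 numbers were 141, 138, 114, 137 and 122. In Cdh12 they were 199, 164, 159, 168 and 161, with the highest at the 5′ end, and on day 0 they were 24, 20, 33, 33 and 27. The RefSeq start site used above lies in the middle part of both genes.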
